A study of Mus musculus with 24 samples.

Results

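The hepatic expression of 35 listed genes of the cell cycle and of DNA replication was examined in mice with a chronic knockdown of Keap1. The genes were taken from a list of cyclins, their kinases and inhibitors, replication factors and mitotic genes. Of these, 34 were measured among 18193 genes, each at its brightest probe set that names a single gene, by the mean over 24 arrays; Ccnb1 was not analysed here. Liver RNA of male C57BL6/J mice, 8 weeks old when the Western diet began, was hybridised to Affymetrix whole-genome mouse arrays with 1 array per mouse. All mice received the high-fat Western diet with 6% sucrose in the drinking water, so that no group was on a normal diet. They were injected into the tail vein once weekly for 7 weeks with 1 mg per kg of a chemically modified siRNA in lipid nanoparticles, which carry their load mainly to hepatocytes. The groups were siControl, a scrambled siRNA without a target, siKeap1-1 and siKeap1-2, 2 different siRNAs against Keap1, with 8 mice each. Per the methods, each group held fed and fasted mice, but the labels do not give the feeding state of a mouse, and its part in any result was not tested. The p-values measure the spread between these mice, and in whole liver fewer cells of a type and less RNA per cell cannot be told apart.

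Cells enter the cycle when D-type cyclins with Cdk4 or Cdk6, and then E-type cyclins with Cdk2, phosphorylate the retinoblastoma protein and free E2F transcription factors, which switch on genes for DNA replication. The Mcm proteins form the helicase that opens DNA, and in the later phases Cdk1 with cyclins A and B drives mitosis. Adult hepatocytes are mostly quiescent and return to the cycle after injury or loss of tissue. Keap1 is the adaptor that marks the transcription factor Nrf2 for degradation.

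Keap1 signals lay between 9.33 and 10.03 on the log2 scale in siControl, between 7.21 and 7.93 in siKeap1-1 and between 8.03 and 8.59 in siKeap1-2, so that no groups overlapped. Keap1 fell by 2.13 on the log2 scale with siKeap1-1 and by 1.36 with siKeap1-2, and Nqo1, a target of Nrf2, rose by 2.22 and 1.91. A control probe set for 18S ribosomal RNA lay between 10.45 and 11.12 on the siKeap1-2 arrays. On the siKeap1-1 arrays it was 10.17 to 10.44 for replicates 1 to 3 and 11.17 to 11.43 for replicates 4 to 8. Among the siControl arrays, replicates 1 to 3 reached 10.34 to 10.77 while replicates 4 to 8 stayed at 8.86 to 9.54. Values without 1 of these sets are given for Ccnd1, E2f1, Esco2 and the counts of called genes. The other named genes are given with all arrays, and their values without these sets are not shown. Hepatocyte markers had a mean log2 signal per array of 14.08 to 14.15 in siControl, 13.95 to 14.08 in siKeap1-1 and 13.98 to 14.14 in siKeap1-2. Among markers of other liver cells, Timd4 of resident macrophages fell by 1.52 in siKeap1-1 mice and by 1.16 in siKeap1-2 mice, and Sox9 of bile duct and progenitor cells rose by 0.87 and 0.96. Vsig4 of macrophages fell by 0.60 and Cd4 of T cells by 0.55 with siKeap1-1, and the macrophage receptor Marco rose by 1.49 while Cdh5 of endothelial cells fell by 0.32 with siKeap1-2. No other measured gene of the 7 marker lists passed the test against siControl. With siKeap1-2, Sox9 and Marco went against most of their lists. There, 5 of 6 bile duct and progenitor markers had a difference below 0, with a median of -0.32. The same held for 8 of 10 macrophage markers, with a median of -0.17. With siKeap1-1, 3 of 6 and 8 of 10 were below 0, with medians of 0.07 and -0.18. The mean of the 10 macrophage markers ranged from 9.67 to 10.53 in siControl, 9.18 to 10.31 in siKeap1-1 and 9.36 to 10.54 in siKeap1-2, and that of the 9 measured T, B and NK cell markers from 6.61 to 7.60, 6.71 to 7.15 and 6.87 to 7.37. For the 6 measured bile duct and progenitor markers it was 7.57 to 8.17, 7.68 to 8.25 and 7.55 to 7.91, and for the 8 endothelial markers 8.38 to 9.13, 8.43 to 9.35 and 8.67 to 8.92. The 8 stellate cell markers ranged from 9.80 to 10.32, 9.72 to 10.70 and 9.85 to 10.58, and 4 measured erythroid markers from 6.49 to 6.94, 6.24 to 6.75 and 6.20 to 6.90. The part of these markers in the results was not tested.

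With siKeap1-1, 3 of the 34 genes changed against siControl: the cohesin acetyltransferase gene Esco2 and the transcription factor gene E2f1 rose, and the cyclin gene Ccnd1 fell. With siKeap1-2, Esco2 rose and Ccnd1 fell. Changes were called at an adjusted p under 0.05 in limma, adjusted over all genes. The share of genes higher with siKeap1-1 was 2 of 34 members, beside 5.27% of all genes, and the share lower was 1 of 34, beside 5.08%. For siKeap1-2 it was 1 of 34 higher, beside 3.14%, and 1 of 34 lower, beside 4.2%. The number of called members was therefore near the share of all genes.

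The log2 difference from siControl was above 0 for 27 of 34 members with siKeap1-1, beside 53.9% of all genes, with a median of 0.18 against 0.01 over all genes. With siKeap1-2 it was above 0 for 24 of 34, beside 48% of all genes, with a median of 0.13 against -0.01. Most of these differences were not larger than the spread between mice. Of the 26 members with several probe sets, 20 had all of them in 1 direction with siKeap1-1 and 16 with siKeap1-2. At an unadjusted p under 0.05, 6 of 34 members were higher and 2 lower with siKeap1-1, beside 12.8% and 12.2% of all genes. For siKeap1-2 the counts were 1 higher and 2 lower, beside 9.48% and 12.8%. Both comparisons use the same 8 siControl mice, so their values are given side by side and are not independent of each other.

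**Figure D1:**
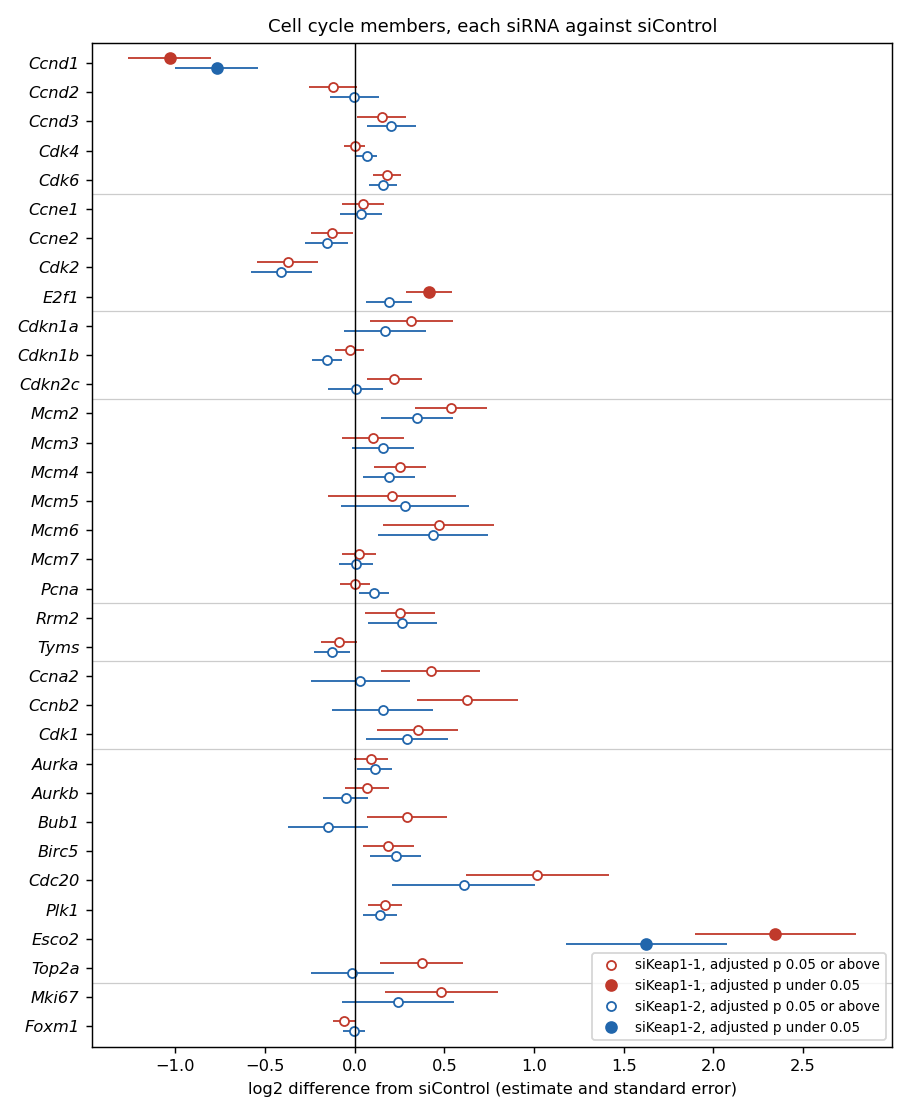
Log2 difference from siControl (x axis) of each of the 34 measured genes (y axis, grouped by role from the D-type cyclins at the top to Mki67 and Foxm1 at the bottom), with points for the estimate, bars for the standard error, and filled points for an adjusted p under 0.05. Esco2 lies farthest to the right at 2.35 and 1.63, and Ccnd1 farthest to the left at -1.03 and -0.77.

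Among the D-type cyclins and their kinases, Ccnd1, which encodes cyclin D1, was the gene that changed. Its log2 signal in siControl was lowest at 9.80, with a median of 10.29 and a highest value of 10.67. The corresponding values were 8.91, 9.25 and 9.59 with siKeap1-1, and 8.76, 9.41 and 10.83 with siKeap1-2. Each siKeap1-1 mouse lay below each siControl mouse, and 6 of 8 siKeap1-2 mice did so, while siKeap1-2 replicates 1 and 5 reached the control range at 10.43 and 10.83. A separation of all arrays without overlap was found for 1 of 34 members with siKeap1-1, beside 1.71% of all genes, and for 0 of 34 with siKeap1-2, beside 1.41%. Ccnd1 fell by 1.03 with siKeap1-1 (SE 0.23, adjusted p = 0.00516), which is 2.04-fold, and by 0.77 with siKeap1-2 (SE 0.23, adjusted p = 0.0422), which is 1.71-fold. Both other probe sets of the gene were also lower, at -0.77 (adjusted p = 0.0117) and -0.59 (adjusted p = 0.0197) with siKeap1-1, and at -0.42 and -0.29 with siKeap1-2, where neither passed the test.

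Among the control mice, Ccnd1 was lower in the 3 mice with the higher 18S signal. In siControl replicates 1 to 3 the Ccnd1 signal was 10.07, 9.80 and 10.09, which is still above each siKeap1-1 mouse, and in replicates 4 to 8 it was 10.22 to 10.67. With the 18S signal as a covariate, the difference was -0.67 with siKeap1-1 (adjusted p = 0.286) and -0.43 with siKeap1-2 (adjusted p = 0.676), and without siControl replicates 4 to 8 it was -0.74 (adjusted p = 0.257) and -0.48 (adjusted p = 0.584). The siKeap1-2 call was also lost, at an adjusted p of 0.0559 to 0.0955, when any of siKeap1-2 replicates 2, 3, 4, 6, 7 and 8 or siControl replicates 4 to 8 was left out. It was lost as well under quantile normalization (adjusted p = 0.0537), with only the compared groups in the fit (0.0846), with the replicate block (0.0661) and with the mean over the probe sets of the gene (0.103).

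Ccnd2 and Ccnd3, the other D-type cyclins, differed by -0.12 and 0.15 in siKeap1-1 mice and by 0.00 and 0.20 in siKeap1-2 mice, and neither passed the test. The dimmer probe sets of Ccnd3 differed by -0.54 and 0.29 in siKeap1-1 mice and by -0.57 and 0.09 in siKeap1-2 mice. Those of Ccnd2 differed by 0.07 to 0.17 with siKeap1-1 and by -0.12 to 0.22 with siKeap1-2. None of these dimmer probe sets passed the test. Cdk4, a partner of these cyclins, was the member with the smallest spread between mice, with signals from 9.90 to 10.44 over all 24 arrays and differences of 0.00 and 0.07. Cdk6, the other partner kinase, lay between 10.16 and 10.40 in siControl. Its signals were 10.21 to 10.25 and 10.27 in siKeap1-1 replicates 1 to 3, and 10.59 to 10.70 in the other 5 mice of that group, above the control range. These are the mice with the lower and the higher 18S signal of that group, and with the 18S covariate the Cdk6 difference was 0.12 (adjusted p = 0.655). Without it, the Cdk6 difference was 0.18 (adjusted p = 0.143) and 0.16 (adjusted p = 0.232), whereas a dimmer probe set of Cdk6 was called at 0.34 (adjusted p = 0.0385) and 0.39 (adjusted p = 0.0248), and another dim one differed by 0.15 and -0.04 without passing the test.

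**Figure D2:**
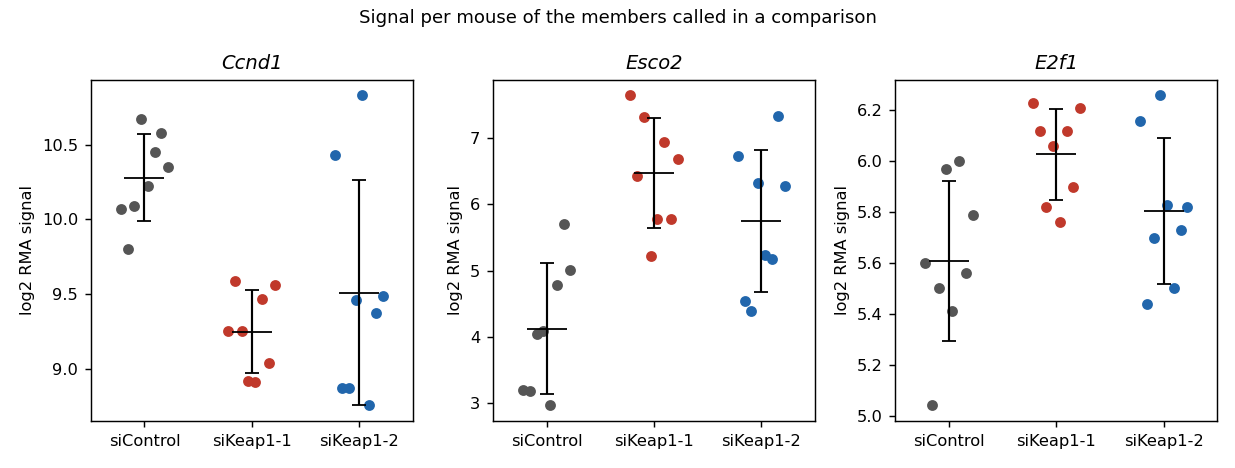
Log2 RMA signal (y axis) of Ccnd1, Esco2 and E2f1 in each of the 24 mice, by siRNA group (x axis); points are mice, and the bar and whiskers give the mean and SD of 8 mice. The siKeap1-1 mice lie below all siControl mice for Ccnd1, and 7 of 8 lie above all siControl mice for Esco2.

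At the transition from G1 to S phase, E2f1, a transcription factor that switches on replication genes, rose with siKeap1-1. Its signal had a lowest value of 5.04, a median of 5.58 and a highest value of 6.00 in siControl, against 5.76, 6.09 and 6.23 with siKeap1-1 and 5.44, 5.77 and 6.26 with siKeap1-2. All 8 siKeap1-1 mice lay above the control median and 5 of 8 above every control mouse, so that the groups overlapped in part. E2f1 rose by 0.42 with siKeap1-1 (SE 0.13, adjusted p = 0.0375) and differed by 0.19 with siKeap1-2 (adjusted p = 0.395). The call was near the threshold. It was lost at an adjusted p of 0.0522 to 0.0701 when any of siKeap1-1 replicates 1, 2, 4, 6 and 8 or siControl replicates 1, 2, 3, 5 and 7 was left out, and the difference was 0.28 (adjusted p = 0.196) without siControl replicates 1 to 3. Both other probe sets of E2f1 differed by 0.15 and 0.12 and were not called, and the mean over the probe sets of the gene differed by 0.23 (adjusted p = 0.0526).

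Cdk2, the kinase partner of the E-type cyclins, had a log2 signal of 7.54 to 8.30 in siControl, 6.82 to 7.83 with siKeap1-1 and 6.73 to 8.19 with siKeap1-2. The siKeap1-1 mice all lay below the control median of 7.86, although the ranges overlapped. The differences were -0.37 (adjusted p = 0.171) and -0.41 (adjusted p = 0.151). The E-type cyclins Ccne1 and Ccne2 differed by 0.04 and -0.13 in siKeap1-1 mice and by 0.03 and -0.16 in siKeap1-2 mice.

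None of the 3 inhibitors of cyclin-dependent kinases passed the test. Cdkn1a, which encodes p21 and is a target of p53, ranged from 6.46 to 7.72 in siControl, from 5.97 to 7.93 in siKeap1-1 mice and from 6.43 to 7.61 with siKeap1-2. Its differences were 0.32 (adjusted p = 0.429) and 0.17 (adjusted p = 0.722), and siKeap1-1 replicate 4 had the lowest value of all 24 mice. Cdkn1b, which encodes p27, differed by -0.03 and -0.15, and Cdkn2c, which encodes an inhibitor of Cdk4 and Cdk6, by 0.22 and 0.01. A dimmer probe set of Cdkn1b differed the other way, by 0.25 with siKeap1-1 and 0.43 with siKeap1-2, without passing the test.

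Of the genes of the replication fork, the 6 helicase genes Mcm2 to Mcm7 and Pcna, the sliding clamp of the polymerases, all had differences above 0 with both siRNAs, and none was called. The differences ranged from 0.00 for Pcna to 0.53 for Mcm2 in siKeap1-1 mice and from 0.01 for Mcm7 to 0.44 for Mcm6 with siKeap1-2, with medians of 0.21 and 0.19. Mcm2 had a lowest, median and highest signal of 6.29, 6.78 and 7.17 in siControl, 6.75, 7.45 and 7.99 with siKeap1-1, and 6.54, 7.08 and 7.98 with siKeap1-2. The highest Mcm2 values were in replicate 1 of both siKeap1 groups, and 5 of 8 siKeap1-1 mice lay above every control mouse. The Mcm2 difference was 0.53 (SE 0.20, adjusted p = 0.0920) with siKeap1-1 and 0.35 (adjusted p = 0.318) with siKeap1-2. A second probe set of Mcm2 was called in both comparisons, at 0.57 (adjusted p = 0.0107) and 0.46 (adjusted p = 0.0487), and with the 18S signal as a covariate the brightest probe set was called with siKeap1-1 at 0.96 (adjusted p = 0.0376).

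Mcm6 and Mcm5 varied far more between mice than between groups. Mcm6 lay between 7.28 and 8.38 in siControl, between 7.37 and 9.32 in siKeap1-1 mice and between 6.91 and 9.48 with siKeap1-2. Mcm5 lay between 7.13 and 8.70, between 7.36 and 9.30 and between 6.61 and 9.72. For both genes the siKeap1-2 group held the lowest and the highest mouse of the study. The Mcm6 differences were 0.47 (SE 0.31, adjusted p = 0.373) and 0.44 (adjusted p = 0.432), and those of Mcm5 were 0.21 and 0.28 (SE 0.36). Mcm3, Mcm4 and Mcm7 differed by 0.10, 0.25 and 0.02 in siKeap1-1 mice and by 0.16, 0.19 and 0.01 in siKeap1-2 mice. Of the genes for nucleotide supply, Rrm2, a subunit of ribonucleotide reductase, differed by 0.25 and 0.27 and Tyms, thymidylate synthase, by -0.09 and -0.12, and neither passed the test.

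Esco2 showed the largest difference of the 34 genes. It encodes the enzyme that acetylates cohesin while DNA is copied and so holds sister chromatids together until mitosis. The lowest, median and highest log2 signals were 2.97, 4.07 and 5.70 in siControl, 5.22, 6.56 and 7.64 with siKeap1-1, and 4.39, 5.75 and 7.33 with siKeap1-2. Above every control mouse lay 7 of 8 siKeap1-1 mice and 4 of 8 siKeap1-2 mice, and all 16 treated mice lay above the control median. Esco2 rose by 2.35 with siKeap1-1 (SE 0.45, adjusted p = 0.00127), which is 5.08-fold, and by 1.63 with siKeap1-2 (SE 0.45, adjusted p = 0.0273), which is 3.09-fold. The siKeap1-1 call held in all 41 settings tried, at 1.84 to 3.33. With siKeap1-2 it was lost without siKeap1-2 replicate 1, siKeap1-2 replicate 7 or siControl replicate 5, at an adjusted p of 0.0546 to 0.0563, and without siControl replicates 1 to 3 together, at 1.24 (adjusted p = 0.136). The other probe set of Esco2 differed by 1.32 (adjusted p = 0.00465) and 0.76 (adjusted p = 0.123). Esco2 also had the widest spread of the members within groups, with a pooled SD of 0.97.

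Among the mitotic cyclins and their kinase, Ccnb2 (cyclin B2), Ccna2 (cyclin A2) and Cdk1 had differences above 0 with both siRNAs, and none was called. Ccnb2 ranged from 5.10 to 6.63 in siControl, from 5.26 to 7.13 in siKeap1-1 mice and from 4.77 to 6.70 with siKeap1-2, with differences of 0.63 (SE 0.28, adjusted p = 0.162) and 0.16 (adjusted p = 0.795). Ccna2 differed by 0.42 and 0.03 (SE 0.28) and Cdk1, the kinase that drives entry into mitosis, by 0.35 and 0.29 (SE 0.23). The siKeap1-2 group again held the lowest Ccna2 signal, 6.53, and shared the highest, 8.75, with siKeap1-1.

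At the brightest probe sets, the largest difference among the members that did not pass the test was that of Cdc20, which activates the ubiquitin ligase that ends metaphase. Its lowest, median and highest signals were 4.80, 6.12 and 6.65 in siControl, 5.69, 7.05 and 8.07 with siKeap1-1, and 5.43, 6.29 and 8.02 with siKeap1-2. With siKeap1-1, 5 of 8 mice lay above every control mouse, and replicates 1, 5 and 6 formed a high set at 7.98 to 8.07 while replicates 3 and 4 were at 5.86 and 5.69. The difference was 1.02 (SE 0.40, adjusted p = 0.106) and 0.61 (SE 0.40, adjusted p = 0.391). Both dimmer probe sets of Cdc20 gave smaller values. One read 0.40 for siKeap1-1 and 0.22 for siKeap1-2, the other 0.28 and 0.35, and neither passed the test. The kinases Aurka, Aurkb, Plk1 and Bub1 differed by 0.09, 0.07, 0.17 and 0.29 in siKeap1-1 mice and by 0.11, -0.05, 0.14 and -0.15 in siKeap1-2 mice. A dimmer probe set of Aurkb differed by 0.30 and 0.06 and a dimmer one of Bub1 by 0.29 and 0.05, without passing the test. The signal of Bub1 was low, with 13% of all genes dimmer. Birc5, a subunit of the chromosomal passenger complex, differed by 0.19 and 0.23. Top2a, the topoisomerase that untangles replicated chromosomes, differed by 0.37 and -0.01, with ranges of 5.77 to 6.65 in siControl, 6.08 to 7.05 with siKeap1-1 and 5.08 to 7.16 with siKeap1-2.

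Mki67, the gene of the proliferation marker Ki-67, had a lowest, median and highest signal of 6.52, 6.82 and 7.83 in siControl, 6.54, 7.77 and 8.24 with siKeap1-1, and 6.09, 7.33 and 8.35 with siKeap1-2. The ranges overlapped, and the differences were 0.48 (SE 0.31, adjusted p = 0.365) and 0.24 (adjusted p = 0.710). Foxm1, a transcription factor of mitotic genes, hardly varied at its brightest probe set, from 6.09 to 6.50 over all mice, and differed by -0.06 and -0.01. Its dimmer probe sets differed the other way, by 0.01 to 0.28 with siKeap1-1 and by 0.01 to 0.19 with siKeap1-2, without passing the test.

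No member was called between siKeap1-1 and siKeap1-2: 0 of 34 were higher and 0 of 34 were lower in limma, beside 0.148% and 0.132% of all genes, and none had an unadjusted p under 0.05, beside 6.53% of all genes higher and 3.09% lower. The same 0 calls were found in each of the other settings tried. The largest difference was 0.72 for Esco2 (95% interval -0.21 to 1.65), followed by 0.47 for Ccnb2 (-0.11 to 1.05), 0.44 for Bub1 (-0.02 to 0.90) and 0.41 for Cdc20 (-0.41 to 1.23). For Ccnd1 it was -0.26 (-0.74 to 0.22). These intervals are wide, so that a difference between the siRNAs of the size of many of the differences from siControl was not detectable with 8 mice per group.

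The mitotic genes spread more between mice of a group than most genes did. The pooled SD within groups had a median of 0.49 over the 13 measured mitotic members, of 0.32 over all 34 members and of 0.19 over all genes. The mean signal of the 13 mitotic genes was 5.68 to 6.29 in siControl, 6.04 to 6.94 with siKeap1-1 and 5.74 to 7.06 with siKeap1-2. In the siKeap1-2 group, replicates 1 and 7 stood at 6.97 and 7.06 and replicates 2, 3 and 6 at 5.74, 5.94 and 5.85. Replicate 7 had the highest signal of its group for 8 of the 13 genes and lay above the group median for all 13. With siKeap1-1, replicate 4 was the lowest of its group for 7 of 13. The mean of the 9 genes for replication and nucleotide supply was 8.51 to 9.02, 8.58 to 9.49 and 8.42 to 9.63 in the 3 groups, with replicate 1 the highest in both siKeap1 groups.

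**Figure D3:**
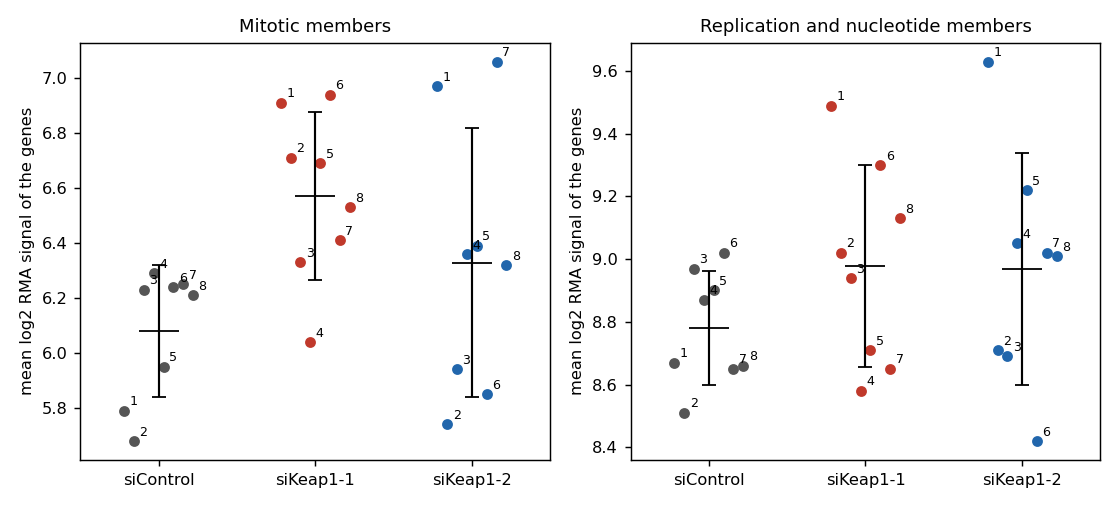
Mean log2 RMA signal (y axis) of the 13 mitotic members (left) and of the 9 members for replication and nucleotide supply (right) in each mouse, by siRNA group (x axis), with the replicate number beside each point and the mean and SD of 8 mice. The siControl mice span 0.61 for the mitotic genes, the siKeap1-1 mice 0.90 and the siKeap1-2 mice 1.32.

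To see which genes varied together between mice irrespective of the siRNA, the deviation of each mouse from its group mean was compared with that of Top2a, a gene of late S phase and mitosis. In 13 of 33 relations the adjusted p of Pearson's r was under 0.05 (two-sided permutation within groups, 24 mice), and in 16 of 33 that of Spearman's rho. The 13 genes were E2f1, Mcm2, Mcm3, Mcm5, Mcm6, Pcna, Ccna2, Ccnb2, Cdk1, Bub1, Cdc20, Esco2 and Mki67, all with a positive r. Genes outside the member list were not compared with Top2a one by one. Whether such relations are special to cell cycle genes was therefore not tested. The strongest relation was with Ccna2, at r = 0.826 (permutation p = 2e-05, adjusted p = 0.00033) and rho = 0.765 (permutation p = 7e-05, adjusted p = 0.00115). Mki67 followed at r = 0.791 (permutation p = 6e-05, adjusted p = 0.00066) and rho = 0.816 (permutation p = 5e-05, adjusted p = 0.00115). Mcm6, a gene of S phase rather than mitosis, had r = 0.733 (permutation p = 0.00037, adjusted p = 0.00305) and rho = 0.706 (permutation p = 0.00063, adjusted p = 0.00346). Bub1 had the smallest p that the permutations can give, at r = 0.712 (permutation p = 1e-05, adjusted p = 0.00033) and rho = 0.710 (permutation p = 0.00016, adjusted p = 0.00176).

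Without the 2 mice farthest from the median of Top2a, siKeap1-2 replicates 2 and 1, r was 0.733 for Ccna2, 0.765 for Mki67, 0.662 for Mcm6 and 0.693 for Bub1. The within-group r of Ccna2 was 0.713 in siControl, 0.620 with siKeap1-1 and 0.945 with siKeap1-2, and that of Mki67 0.595, 0.639 and 0.919. Ccnd1 had r = 0.586 (permutation p = 0.0283, adjusted p = 0.0549) and rho = 0.582 (permutation p = 0.00654, adjusted p = 0.0180), and r was 0.412 without those mice. Ccnd2, Cdk4, Ccne2 and Tyms had an r between -0.104 and 0.022 (adjusted permutation p of 0.758 to 0.962), and that of Foxm1 was -0.375 (permutation p = 0.121, adjusted p = 0.190; rho = -0.187, permutation p = 0.420, adjusted p = 0.513). With the mean over the probe sets of each gene, 4 of these 13 relations had an adjusted p under 0.05, those of Mcm3, Mcm5, Bub1 and Mki67.

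Of 9 other measures compared with Top2a in the same way, none had an adjusted p under 0.05. The lowest unadjusted p was that of the 18S signal, at r = -0.363 (permutation p = 0.0191, adjusted p = 0.0963; rho = -0.435, permutation p = 0.0211, adjusted p = 0.190; r = -0.408 without those 2 mice). The markers of T, B and NK cells had r = 0.433 (permutation p = 0.0214, adjusted p = 0.0963; rho = 0.318, permutation p = 0.134, adjusted p = 0.403; r = 0.315 without them). Stellate cell markers had r = 0.470 (permutation p = 0.0345, adjusted p = 0.104; rho = 0.454, permutation p = 0.0422, adjusted p = 0.190; r = 0.307 without them). Within groups, some of these relations had opposite signs. For hepatocyte markers r was -0.191 in siControl, -0.902 with siKeap1-1 and 0.640 with siKeap1-2, and for macrophage markers 0.101, -0.689 and 0.792, so that their pooled r of 0.163 and 0.268 does not describe each group; the differences between groups were not tested. The part of these measures, and of the feeding state, in the shared variation was not tested.

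**Figure D4:**
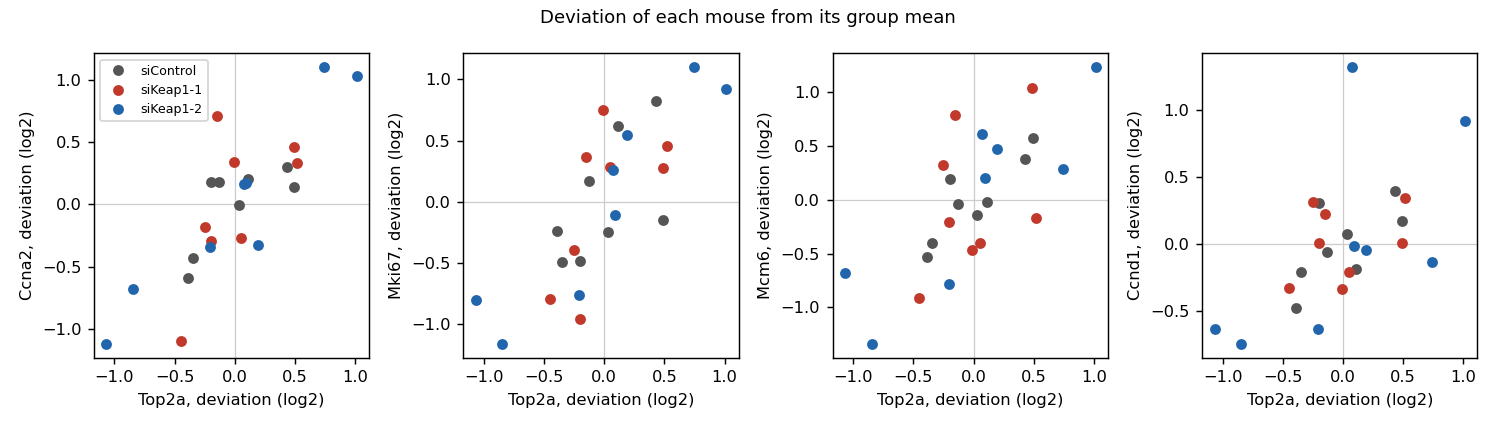
Deviation of each mouse from its group mean (log2) for Top2a (x axis) against Ccna2, Mki67, Mcm6 and Ccnd1 (y axes), with 1 point per mouse coloured by siRNA group. Ccna2, Mki67 and Mcm6 climb with Top2a at r = 0.826, 0.791 and 0.733, and the points of Ccnd1 are more scattered at r = 0.586.

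Promoter sequence of the genes that varied together is shown because late cell cycle genes are known to carry a short element called CHR near a CCAAT box bound by NF-Y, while genes of the G1 to S transition carry E2F sites. The bases -120 to -1 before the RefSeq start site (GRCm38.p6) are given 5′ to 3′ on the strand of the gene. Capitals mark matches on either strand to the NF-Y word CCAAT, the CHR word TTTGAA, its variant TTCGAA, the E2F words TTTCGCGC, TTTGGCGC and TTTCCCGC, and TGACNNNGC, the core of the antioxidant response element that Nrf2 binds. All 5 genes lie on the minus strand. Cdk1 is at chr10:69352913-69353032, Cdc20 at chr4:118437344-118437463, Top2a at chr11:99024190-99024309, Mki67 at chr7:135716380-135716499 and Mcm6 at chr1:128359706-128359825.
Cdk1: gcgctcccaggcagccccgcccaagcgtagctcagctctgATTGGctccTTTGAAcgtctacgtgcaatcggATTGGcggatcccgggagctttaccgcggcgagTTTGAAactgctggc
Cdc20: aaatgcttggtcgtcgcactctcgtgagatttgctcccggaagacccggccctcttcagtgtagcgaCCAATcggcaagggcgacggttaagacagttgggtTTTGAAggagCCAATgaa
Top2a: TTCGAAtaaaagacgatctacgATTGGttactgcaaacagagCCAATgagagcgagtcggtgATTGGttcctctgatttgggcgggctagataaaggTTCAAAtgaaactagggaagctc
Mki67: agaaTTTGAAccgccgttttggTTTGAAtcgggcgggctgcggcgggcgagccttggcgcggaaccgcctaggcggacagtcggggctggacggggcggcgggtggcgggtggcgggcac
Mcm6: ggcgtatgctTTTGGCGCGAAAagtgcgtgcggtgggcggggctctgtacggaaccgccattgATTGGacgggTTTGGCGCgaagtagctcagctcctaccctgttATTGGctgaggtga

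The Cdk1 stretch holds TTTGAA at -71 and -15, with CCAAT matches on the opposite strand at -80 and -48, where a position is that of the leftmost base. The Cdc20 stretch holds TTTGAA at -18 between CCAAT matches at -53 and -8. In Top2a a TTTGAA match on the opposite strand lies at -23, and Mki67 has TTTGAA at -116 and -98. Mcm6 has no TTTGAA in its window, but TTTGGCGC at -110 and -47, the first overlapping TTTCGCGC on the opposite strand at -106.

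**Figure D5:**
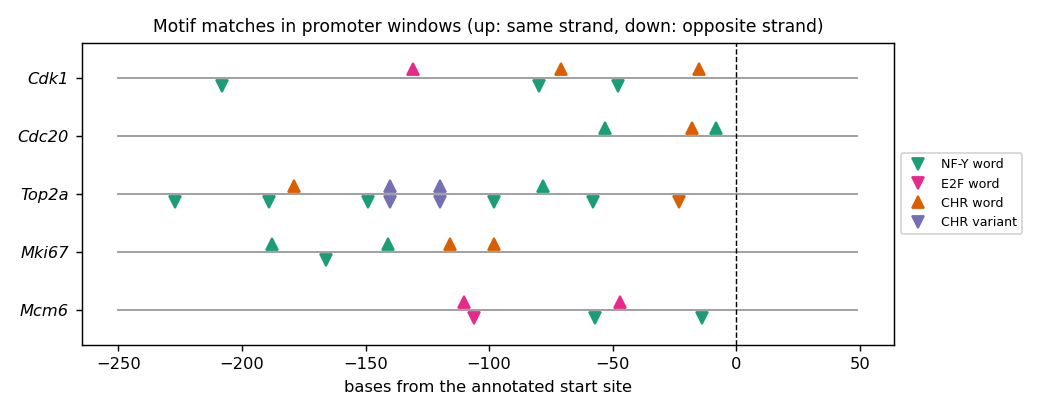
Positions of the motif matches in the promoter windows of Cdk1, Cdc20, Top2a, Mki67 and Mcm6 (y axis), in bases from the annotated start site (x axis, leftmost base of the match); triangles point up for the strand of the gene and down for the opposite strand. Cdk1, Cdc20, Top2a and Mki67 each have a CHR match within 120 bases before the start, and of these 5 genes Mcm6 has E2F matches within that distance.

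Over whole windows, from 250 bases before to 50 after the start, 31 windows of 27 of the 35 listed genes were available in the RefSeq table; Aurkb, Ccna2, Ccnd1, Ccnd2, Ccne2, Esco2, Foxm1 and Mcm4 had none. TTTGAA or TTCGAA was found in 8 of 10 windows of mitotic members and in 2 of 21 windows of the other members (Mcm2 and Mcm7), beside 19.2% of all 32851 windows. One of the E2F words was found in 1 of 10 mitotic windows (Cdk1) and in 5 of 21 of the others, which are those of Mcm3, Mcm5, Mcm6, Mcm7 and Cdk2, beside 1.84% of all windows. CCAAT was in 21 of 31 windows, or 67.7%, beside 37.4%. TGACNNNGC was in 8 of 31, or 25.8%, beside 12.4%, and among the called genes with a window, E2f1 had no match to it. A match describes letters and not binding.

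The other genes of the same pathways were examined in 5 lists, of which 151 of 158 genes were measured. With siKeap1-1, 15 were higher and 3 lower, against 958 and 925 of 18193 genes, or 5.27% and 5.08%. With siKeap1-2, 3 were higher and 2 lower, against 571 and 764, or 3.14% and 4.2%. These shares of all genes also stand beside the called genes of each single list below. Of 47 other mitotic genes, 8 rose with siKeap1-1 and 0 fell, 38 had a difference above 0, and the median was 0.20 against 0.01 over all genes. They include Tpx2, a spindle assembly factor that activates Aurora A, which rose by 1.41 (SE 0.42, adjusted p = 0.0314). Ube2c, the ubiquitin-conjugating enzyme that works with Cdc20, rose by 0.62 (SE 0.19, adjusted p = 0.0371), Cdca3 by 0.51 (SE 0.16, adjusted p = 0.0428) and the spindle checkpoint kinase gene Ttk by 0.48 (SE 0.14, adjusted p = 0.0256). With siKeap1-2, 2 of 47 rose and 0 fell, with a median of 0.14 against -0.01: Ttk by 0.48 (adjusted p = 0.0344) and the kinesin gene Kif2c by 0.29 (adjusted p = 0.0396). Kif2c had also risen with siKeap1-1, by 0.27 (adjusted p = 0.0401). Tpx2, Ube2c and Cdca3 differed by 0.57, 0.465 and 0.27 with siKeap1-2, without passing the test. The count of 18 changed pathway genes with siKeap1-1 was 10 without siKeap1-1 replicate 5, 7 with the 18S signal as a covariate and 4 without siControl replicates 4 to 8.

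Among 26 other genes around the retinoblastoma protein and E2F, 6 rose and 1 fell with siKeap1-1, beside 5.27% and 5.08% of all genes. Cks1b is in this list and in that of the other mitotic genes, so its rise is counted in both. With siKeap1-2, 0 changed, beside 3.14% and 4.2%. There, an unadjusted p under 0.05 was reached by 2 higher genes and 1 lower gene, beside 9.48% and 12.8% of all genes. Cdkn1c, an inhibitor of cyclin-dependent kinases, rose by 0.56 (adjusted p = 0.00106), Tfdp1, the partner of E2F proteins in DNA binding, by 0.44 (adjusted p = 0.00667) and E2f3 by 0.43 (adjusted p = 0.00152), while E2f2 fell by 0.63 (adjusted p = 0.0255). E2f3 was the single pathway gene that differed between the siRNAs, by 0.59 (SE 0.08, adjusted p = 0.000487), with mean signals of 11.37 in siKeap1-1, 10.77 in siKeap1-2 and 10.94 in siControl. Of 43 other genes of origin licensing and replication, 0 rose and 1 fell with siKeap1-1, thymidine kinase Tk1 by 0.45 (adjusted p = 0.0159). With siKeap1-2 the primase gene Prim1 rose by 0.55 (adjusted p = 0.0316) and Mcm10, which acts in the activation of the helicase, fell by 0.52 (adjusted p = 0.0017). The median of this list was 0.01 with siKeap1-1 and 0.05 with siKeap1-2.

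Of 23 p53 targets other than Cdkn1a, the nuclease gene Aen rose by 0.36 (adjusted p = 0.0027) with siKeap1-1, and Sesn1 fell by 0.39 (adjusted p = 0.00158) with siKeap1-1 and by 0.41 (adjusted p = 0.00183) with siKeap1-2. Of 13 genes of the DNA damage checkpoint, Tipin, a protein of the replication fork, rose by 0.44 (adjusted p = 0.00578) with siKeap1-1, and 0 changed with siKeap1-2. There, an unadjusted p under 0.05 was reached by 1 higher gene and 0 lower genes, beside 9.48% and 12.8% of all genes.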

How the data were processed

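The authors deposited log2 signals made with RMA (no version is named in the sources used here) as 1 value per probe set and array for 24 mouse liver arrays; background correction, quantile normalization and summarisation by RMA bring arrays to a common scale, so a change of total RNA would not be seen. Of 45101 probe sets, 64 controls were left out and 34945 name 1 gene in the platform annotation. Groups were taken from the sample labels.

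The brightest single-gene probe set stood for each of 18193 genes, which were tested in a single limma 3.58.1 fit (R 4.3.3) of the 3 groups, with Benjamini-Hochberg adjustment over all genes; other probe sets were adjusted over 45037. The code was tested on simulated data. No filter on low signals or detection calls was used, and the number of arrays limits the precision. Deviations from group means were compared with Top2a by 100000 permutations within groups. All members are named; from each other list, up to 4 called genes with the largest difference per comparison, with E2f3 between the siRNAs. The members and lists were chosen with earlier results of these data known. Alternatives covered normalization, centring, moderation, array weights, probe sets, samples, covariates, the replicate block and thresholds; leaving out sets of siControl arrays was added after seeing the data.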

Additional observations from a re-analysis of the deposited data

Results flagged for a closer look

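Within single groups, 10 of 171 sets of 8 arrays, over 57 genes, had a mouse that stood apart from the others by Dixon's ratio of its gap to the range of the group; about 5% of groups do so by chance. Among the members these were Cdk4 in siKeap1-2 replicate 5 (high, ratio 0.526), Ccne2 in siKeap1-2 replicate 4 (high, 0.538), Cdkn2c in siKeap1-2 replicate 4 (low, 0.590) and Pcna in siKeap1-1 replicate 3 (low, 0.551). Further members were Bub1 in siControl replicate 4 (high, 0.602), Birc5 in siKeap1-1 replicate 3 (low, 0.608) and Cdc20 in siControl replicate 2 (low, 0.556). Bub1 was at 5.02 in that mouse against 3.38 to 4.03 in the other 7 control mice, and Cdc20 was at 4.80 against 5.83 to 6.65. Among the other named genes, Marco stood apart in siKeap1-1 replicate 8 (high, 0.834), Mcm10 in siControl replicate 7 (low, 0.659) and Sesn1 in siKeap1-1 replicate 2 (low, 0.676).

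Both siRNAs differed from each other by test in E2f3, at 0.59, and in Keap1, at -0.76, as the log2 difference of siKeap1-1 from siKeap1-2.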

How the results depend on the processing

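The count of called members was 3 with siKeap1-1 and stayed between 2 and 4 in every setting, and between 2 and 3 with a mouse left out. With siKeap1-2 it was 2, and it was 1 under quantile normalization, with only the compared groups in the fit, with the 18S covariate, with the mean over probe sets, at a fold over 2, without siControl replicates 4 to 8 and without siControl replicates 1 to 3, 0 at an adjusted p under 0.01, and 0 to 2 with a mouse left out. Between the siRNAs it stayed at 0. The setting of a fold over 2, here and below, also required an unadjusted p under 0.01. Changed pathway genes with siKeap1-1, 18 in all, numbered 7 with the 18S covariate, 6 at an adjusted p under 0.01, 1 at a fold over 2, 4 without siControl replicates 4 to 8, 8 without siControl replicates 1 to 3, and 10 to 21 with a mouse left out. With siKeap1-2, 5 in all, they numbered 2 with the 18S covariate, 8 with the first residual component as a covariate, 9 with the mean over probe sets, 2 at an adjusted p under 0.01, 10 under 0.1, 0 at a fold over 2, 1 without siControl replicates 4 to 8, and 2 to 6 with a mouse left out; it was 2 or 3 without siKeap1-2 replicates 1, 2, 6 or 7 or siControl replicates 6, 7 or 8. Between the siRNAs, 1 gene became 2 at an adjusted p under 0.1, 0 at a fold over 2, and 1 to 2 with a mouse left out, the 2 arising without siKeap1-2 replicate 3 or 7. The 13 relations with Top2a became 4 with the mean over probe sets. The causes were not tested. No member reversed its sign while called. The median difference of the members moved by less than the spread between mice in all settings. That spread was 0.176, as the SD over arrays of the members' median deviation. It is about as large as the medians, 0.18 with siKeap1-1 and 0.13 with siKeap1-2, so this comparison cannot show that they were stable.

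The replicate numbers were not used to pair the mice in the main fit. The correlation of same-numbered arrays ran from -0.227 to 0.346 and was over 0.1 in 12 of 24 pairs. The mean correlation with arrays of other numbers lay between -0.054 and 0.027. Whether the numbers carry shared structure was not tested beyond the replicate block. With the replicate block, 1 member was called with siKeap1-2, as Ccnd1 reached an adjusted p of 0.0661. Low signals such as that of Esco2 in siControl carry no detection call, so how near they lie to background was not measured.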
